A study of Mus musculus with 24 samples.

Results

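The 9 mouse Pax genes, Pax1 to Pax9, were followed through 14 ChIP-seq peak lists of small cell lung cancer lines; they are 9 of 21887 protein-coding genes measured in the same way. They were chosen as the members of the paired box family by symbol, and all 9 were found in the gene table. For each gene and list the measure is the length, in kb, that peaks cover in the gene body extended by 10 kb at either end, called the window here. The windows range from 27.01 kb for Pax4 to 205.9 kb for Pax5. The window of Pax4 also holds Fscn3, that of Pax6 Elp4 and that of Pax9 Slc25a21, so peaks of these neighbours count there.

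The study asked what KDM6A, an enzyme that removes methyl groups from H3K27, does to chromatin and subtype in small cell lung cancer. Kdm6a-mutant lines 236L and 236R were grown from tumours given a guide that targets Kdm6a (sgKdm6a), and control lines 159-1 and 1014 from tumours given a control guide (sgControl). All belong to the RPP mouse model, so lines of both groups also lack Rb1, Trp53 and Rbl2 by design. H3K4me1, H3K4me2 and H3K27me3 were mapped in all 4 lines and KDM6A in both control lines, in cultures collected 24 h after plating and without treatment. Each list is 1 library of 1 early-passage line. Both mutant lines carry the number 236, and the labels do not say whether they stem from different mice. The SD of the mutant lines may then be that of 1 animal, and a p-value covers the spread between these lines alone.

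Pax proteins are transcription factors that bind DNA through the paired domain and set the identity of organs and cell lineages in the embryo. In most adult tissues their genes are held silent by Polycomb repressive complexes, whose mark H3K27me3 spreads in broad domains over such CpG-rich developmental genes. H3K4me1 and H3K4me2 mark enhancers and promoters that are open or ready for use, and KDM6A works within the complexes that write H3K4me1. A promoter with both kinds of mark is called bivalent.

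The sequences shown are both starts of Pax6, an inner start of Pax2 and the starts of Pax5 and Pax8. The first start of Pax6 had H3K4me1 and H3K4me2 in the mutant lines alone. Those of Pax2 and Pax5 had more of both marks within 2.5 kb in the mutant lines. At the Pax8 start both mutant lines lay below both control lines for both marks, but by less than 1 kb. Each sequence is the 250 bases before a transcription start, written toward it, from RefSeq on GRCm38.p6 (mm10). Each CpG is in capitals, since Polycomb domains form over CpG-rich DNA. The table of promoters held 10 starts of 7 members; it holds none of Pax3 or Pax4. The first start of Pax6 lies at the gene's upstream end and the other one 13.6 kb inside it, and the start of Pax2 shown lies 9.15 kb inside that gene. The first Pax6 sequence is chr2:105668646-105668895 and the other chr2:105682213-105682462, both on the plus strand. The Pax2 sequence is chr19:44755502-44755751 on the plus strand, the Pax5 sequence chr4:44710695-44710944 on the minus strand, and the Pax8 sequence is chr2:24475600-24475849 on the minus strand.
Pax6, first start: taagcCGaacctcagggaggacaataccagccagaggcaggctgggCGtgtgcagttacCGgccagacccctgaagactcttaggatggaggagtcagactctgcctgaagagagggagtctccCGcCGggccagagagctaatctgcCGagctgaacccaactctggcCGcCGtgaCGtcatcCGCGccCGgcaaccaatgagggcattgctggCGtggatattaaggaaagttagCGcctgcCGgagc
Pax6, inner start: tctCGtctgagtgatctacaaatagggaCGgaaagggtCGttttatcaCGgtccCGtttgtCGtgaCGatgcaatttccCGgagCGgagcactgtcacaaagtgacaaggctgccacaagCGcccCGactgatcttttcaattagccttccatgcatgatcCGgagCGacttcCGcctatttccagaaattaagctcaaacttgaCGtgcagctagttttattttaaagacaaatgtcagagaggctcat
Pax2, inner start: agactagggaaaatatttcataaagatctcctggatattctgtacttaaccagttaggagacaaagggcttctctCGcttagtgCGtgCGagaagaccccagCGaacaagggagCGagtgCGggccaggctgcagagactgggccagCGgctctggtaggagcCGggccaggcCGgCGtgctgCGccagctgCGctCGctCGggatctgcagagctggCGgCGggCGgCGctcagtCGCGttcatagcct
Pax5, start: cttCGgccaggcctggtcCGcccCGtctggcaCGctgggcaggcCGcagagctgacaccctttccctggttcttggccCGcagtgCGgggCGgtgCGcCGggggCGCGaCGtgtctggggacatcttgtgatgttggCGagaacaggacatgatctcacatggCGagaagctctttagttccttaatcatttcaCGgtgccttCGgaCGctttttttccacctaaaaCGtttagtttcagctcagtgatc
Pax8, start: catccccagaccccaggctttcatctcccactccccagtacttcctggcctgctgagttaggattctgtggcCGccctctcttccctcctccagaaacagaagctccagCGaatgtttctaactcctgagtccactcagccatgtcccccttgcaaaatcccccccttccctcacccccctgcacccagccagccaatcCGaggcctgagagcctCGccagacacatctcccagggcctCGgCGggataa
CpG numbered 15 in each of the Pax6 sequences, 20 in the Pax2 sequence, 19 in the Pax5 sequence and 6 in the Pax8 sequence. The median of all 32851 promoters was 6, and 27.3% of them held as many as 15, 17.9% as many as 20, 19.7% as many as 19 and 50.4% as many as 6. The starts of the remaining members held 10 CpG in Pax1, 13 in Pax7 and 7 in Pax9, and the other Pax2 starts held 5 and 25.

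Kdm6a itself had 6.01 and 4.66 kb of H3K4me2 in 236L and 236R, against 3.10 and 4.38 kb in 159-1 and 1014; peaks do not show whether a guide disrupted it. H3K27me3 lists differed in length, with 13.8 Mb in 236L and 30.5 Mb in 236R, against 45.4 Mb in 159-1 and 110.3 Mb in 1014. H3K4me1 covered 109.2 to 119.8 Mb in mutant and 118.8 to 134.6 Mb in control lines, and H3K4me2 73.7 to 76.1 Mb in mutant and 85.2 to 87.6 Mb in control lines. Depth is unknown, so a short list can be a less enriched library, and its part in the results was not tested. All 10 neuroendocrine marker genes had H3K4me2 in every line, on average over 19.4 and 31.3% of the window in 236L and 236R, against 31.6 and 35.2% in 159-1 and 1014. By the 2 kb rule given below 3 of them had less in the mutant lines, and their median difference was -6.29 points. Line 236L stood apart from the other lines: H3K4me1 covered on average 38.4% of the windows of 8 macrophage genes in it, 6.85% in 236R, and 11.5 and 10.2% in 159-1 and 1014, and H3K27me3 lay at 7 of the 10 neuroendocrine genes in 236L, at 0 in 236R and at 0 and 1 in 159-1 and 1014. The part of this in the Pax results was not tested, and each result is given line by line. The 2 deposited H3K4me2 control lists bear the name of the other control line in their file names; they were assigned by the sample records, and which line each holds is uncertain. An exchange leaves each comparison of both mutant with both control lines within H3K4me2 as it is, but swaps the H3K4me2 values printed for 159-1 and 1014 and changes those that leave out 1 of them or cross H3K4me2 with another mark. H3K4me1 has input libraries of its own. Cover in mutant and control lines was compared within a mark, and overlaps between marks are given line by line.

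In both control lines H3K27me3 covered more of the window than H3K4me1 or H3K4me2 in every member but Pax8. In 236R, by contrast, H3K27me3 covered less than either of them in Pax5, Pax6 and Pax9. In control line 1014 it covered 62.98% or more of the window of 7 members, with Pax2 at 98.9%, Pax9 at 89.4% and Pax1 at 84.7%. In 159-1 the same 7 windows were covered for 20.0 to 64.9%. The exceptions were Pax4, a factor of pancreatic beta cells, at 7.32 and 28.9% in 159-1 and 1014, and Pax8, a thyroid and kidney factor, at 0 and 4.36%. The median member had 17.2 and 11.3% of its window covered in 236L and 236R, against 36.5 and 69.7% in 159-1 and 1014; the median of all genes was 0 in every line. An H3K27me3 peak lay within 2.5 kb of the gene start in both mutant lines in 8 of 9 members (all but Pax9), against 6.46% of all genes, and in both control lines in 8 (all but Pax8), against 11.5%. For Pax3 and Pax4, which have no strand in the tables used, both gene ends were taken. The gene start is the upstream end of the gene record. The only RefSeq start held for Pax1 lies 3.06 kb inside its gene, and that of Pax9 3.78 kb.

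**Figure D1:**
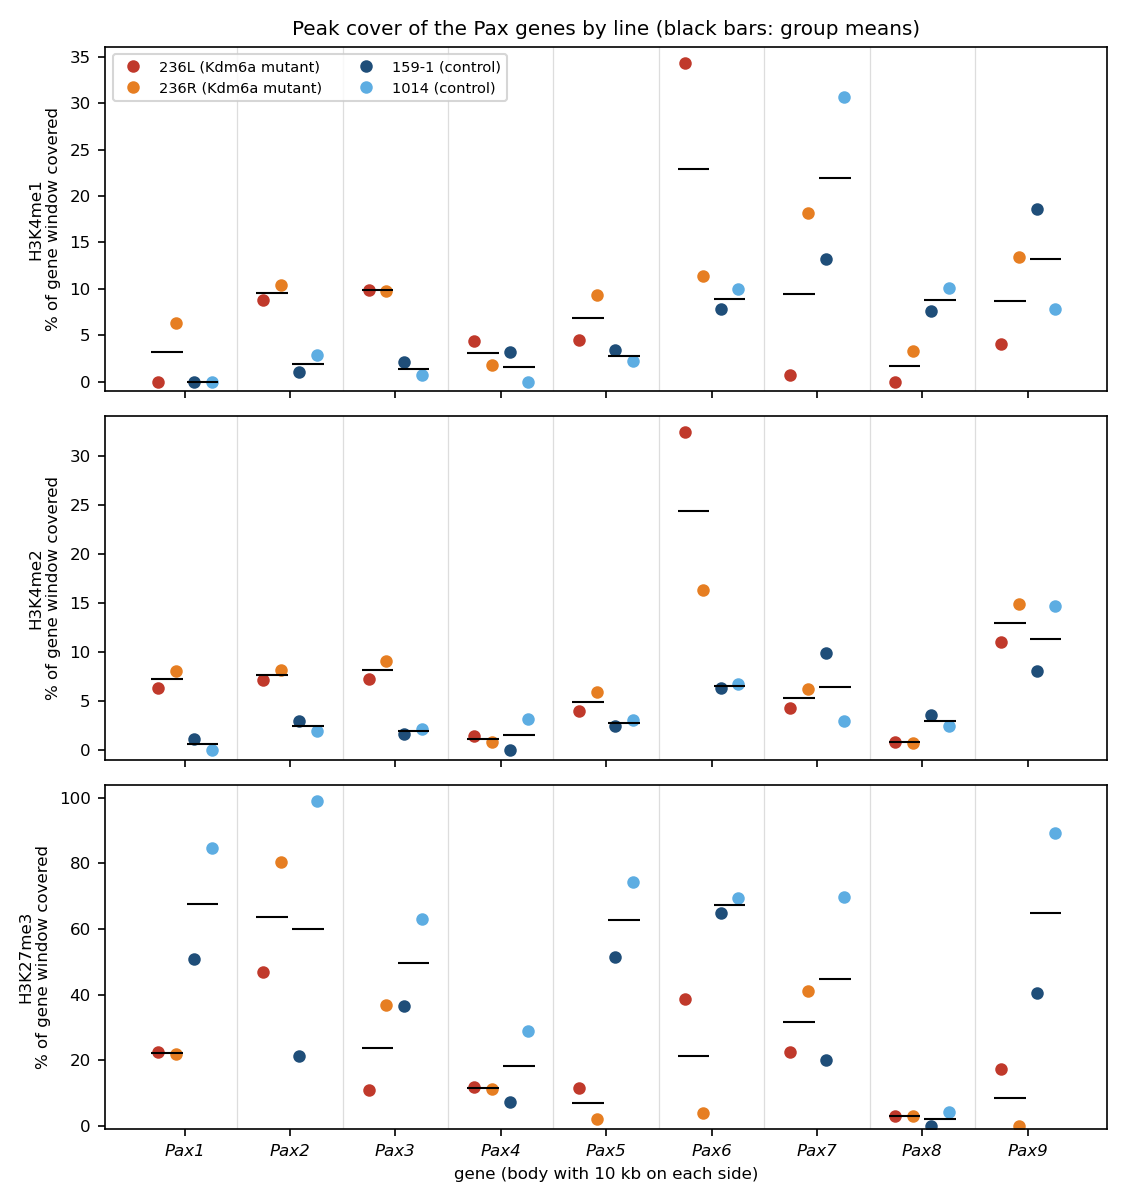
Share of each Pax gene's window covered by H3K4me1, H3K4me2 and H3K27me3 peaks (y axes, %) in the 4 lines (points), with group means as black bars; mutant lines stand to the left of control lines. Both mutant lines lie above both control lines for H3K4me2 in Pax1, Pax2, Pax3, Pax5 and Pax6, and below them for H3K27me3 in Pax1, Pax5, Pax6 and Pax9.

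A gene was said to carry more or less of a mark only if both mutant lines lay at least 2 kb above or below both control lines. With 2 lines against 2 the smallest p of an exact two-sided permutation test is 0.333, so no single gene can pass 0.05; every member counted by this rule has that smallest p. Less H3K27me3 was found in 4 of 9 members, Pax1, Pax5, Pax6 and Pax9, against 6.43% of all genes, and more in 0 members, against 0.425%. A gene can have less only where the control lines carry the mark. An H3K27me3 peak lay in the window in both control lines in 19.4% of all genes and in 8 of 9 members. Every share of all genes with less H3K27me3, here and below, includes genes with no mark to lose. No share of all genes is matched to the members for window length. With the gene body alone 3.85% of all genes had less H3K27me3, and with 50 kb on each side 12.3%. The members' median difference was -25.9 percentage points of the window, against 0 for all genes. In these bulk cultures fewer marked cells and less mark per cell cannot be told apart.

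Pax5, which commits lymphoid cells to the B lineage, had the largest difference of the family in kb. In points of the window, where its length does not count, Pax5 differed by -56.0 and Pax9 by -56.4. H3K27me3 covered 23.5 and 4.56 kb of it in 236L and 236R, against 105.8 and 153.0 kb in 159-1 and 1014. The groups did not overlap, with means of 14.04 ± 13.4 kb in mutant and 129.4 ± 33.3 kb in control lines (SD, n = 2 each), and the mutant mean was 0.109 of the control mean. In 236R peaks ran only around and upstream of the gene start, while those of 236L lay around the start and also further inside, the last one at 169.7 to 170.8 kb. The control lines shared 73.7 kb, in 53 pieces, that neither mutant line covered. With only peaks of q at or below 0.001 the difference was -51.6 kb and the groups overlapped, with 14.5 and 0 kb in 236L and 236R, against 11.9 and 105.9 kb in 159-1 and 1014. Over 8 marker genes of B cells, on average 1.08 and 8.63% of the windows lay under H3K27me3 in 236L and 236R, against 11.3 and 22.6% in 159-1 and 1014. By the 2 kb rule 1 of the 8, Blk, had less and 0 had more, 3 were at 0 in all lines, and the median difference was 0 points.

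Pax6, the master factor of eye development that also acts in brain and pancreatic islets, had 19.1 and 1.89 kb of H3K27me3 in 236L and 236R, against 32.1 and 34.4 kb in 159-1 and 1014. Its means were 10.497 ± 12.2 kb in mutant and 33.3 ± 1.61 kb in control lines (SD, n = 2 each), and without 236R the difference was -14.2 kb in place of -22.8 kb. In 1014 the domain was a single peak of 45.9 kb, and 99.97% of the peaks of that list had a lower fold enrichment, by the authors' deposited fold ratios. In 236R 2 short peaks remained, one of them over the gene start, from -0.497 to 0.381 kb. That stretch was covered in all 4 lines.

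Pax9, needed for teeth, palate and thymus, had 7.07 and 0 kb in 236L and 236R, against 16.7 and 36.8 kb in 159-1 and 1014, a mean difference of -23.2 kb (3.54 ± 5.00 kb in mutant and 26.7 ± 14.2 kb in control lines; SD, n = 2 each). Pax1, a factor of the sclerotome and thymus and the closest relative of Pax9, had 7.46 and 7.24 kb in 236L and 236R, against 16.8 and 28.0 kb in 159-1 and 1014 (mean difference -15.1 kb, from 7.35 ± 0.155 kb in mutant and 22.4 ± 7.92 kb in control lines). Without line 1014 the differences were -13.2 kb for Pax9 and -9.50 kb for Pax1. In both genes each mutant line lay below each control line.

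In the other 5 members the groups overlapped. Pax2, a factor of kidney and optic nerve, had 52.3 and 89.8 kb in 236L and 236R, against 23.7 and 110.4 kb in 159-1 and 1014, so both mutant lines lay between the control lines. Pax7, which marks muscle satellite cells, gave the same order, with 26.1 and 47.9 kb in the mutant lines, against 23.3 and 81.2 kb in the control lines. Pax3, a factor of neural crest and muscle precursors and the closest relative of Pax7, had 12.7 and 42.6 kb in the mutant lines, against 42.2 and 73.0 kb in 159-1 and 1014, with 236R just above 159-1. Pax4 had 3.17 and 3.04 kb in the mutant lines, against 1.98 and 7.81 kb in the control lines, and Pax8 2.27 and 2.19 kb in the mutant lines, against 0 and 3.27 kb in the control lines. Without 159-1 less H3K27me3 was found in 8 members, all but Pax8, against 16.9% of all genes. Without 1014, more was found in 3 members, Pax2, Pax7 and Pax8, against 1%.

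Because H3K27me3 lists differ in length, each was also cut to its strongest peaks, down to the 13.8 Mb of the shortest list. Less H3K27me3 was then found in 5 members, Pax1, Pax3, Pax5, Pax6 and Pax9, against 1.45% of all genes. Pax6 had 19.1 and 0 kb in 236L and 236R, against 28.5 and 34.4 kb in 159-1 and 1014. For Pax5 the difference shrank to -23.8 kb, with 23.5 and 2.13 kb in the mutant lines, against 35.2 and 38.0 kb in the control lines. Pax3 had 12.7 and 16.9 kb in the mutant lines, against 20.0 and 20.4 kb in the control lines, a difference of -5.42 kb. With peaks of q at or below 0.001 Pax3 was also counted, at -28.98 kb.

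For H3K4me2 the counts ran the other way, but only Pax6 was counted both for less H3K27me3 and for more H3K4me2. More H3K4me2 in the mutant lines was found in 3 of 9 members, Pax2, Pax3 and Pax6, against 1.36% of all genes, and less in 0, against 6.37%. By any amount, both mutant lines lay above both control lines in 5 members (Pax1, Pax2, Pax3, Pax5 and Pax6), against 13.9% of all genes, and below them in Pax8, against 25.4%. The members' median difference was 2.19 points of the window, against 0 for all genes. Without 236L more was found in 5 members, those named, against 2.66%, and without 1014 less was found in 2, Pax7 and Pax8, against 9.65%. All 9 windows held H3K4me2 in both mutant lines, against 76.4% of all genes, and 7 did in both control lines, against 76.9%.

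H3K4me2 was then read at gene starts. A peak lay within 2.5 kb of the start in both mutant lines in all 9 members, against 66% of all genes, and in both control lines in 4 members (Pax5, Pax7, Pax8 and Pax9), against 66.1%. In this 5 kb stretch (or at both ends for Pax3) both mutant lines lay at least 1 kb above both control lines in 5 members, Pax1, Pax3, Pax5, Pax6 and Pax7, against 1.43% of all genes. At 2 kb these were 2, Pax3 and Pax6, a count with no share of all genes set beside it. The whole window at 1 kb also gave 5, with Pax2 in place of Pax7, against 3.44% of all genes. Pax1 had 1.02 and 1.37 kb in 236L and 236R, against 0 and 0 kb in 159-1 and 1014. Around the RefSeq start of Pax1, 3.06 kb inside the gene, H3K4me2 covered 1.25 and 1.75 kb within 2.5 kb in the mutant lines. The control lines had 0.383 and 0 kb there, so the groups were less than 1 kb apart. Pax5 had 2.36 and 1.38 kb in the mutant lines and 0.291 and 0.202 kb in the control lines. Pax7 had 2.46 and 2.37 kb in the mutant lines, against 1.33 and 1.06 kb in the control lines.

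Pax6 showed this at its first start. H3K4me2 covered 3.35 and 2.73 kb within 2.5 kb of it in 236L and 236R, against 0 kb in both control lines, and all 250 bases shown above were covered in both mutant lines. One segment, from -1.01 to 1.41 kb, carried H3K4me2 in both mutant lines and neither control line. H3K4me1 did the same from -0.741 to 1.54 kb. H3K27me3 covered the 250 bases in all 4 lines. In the whole window H3K4me2 covered 16.1 and 8.09 kb in 236L and 236R, against 3.11 and 3.32 kb in 159-1 and 1014 (means 12.1 ± 5.63 kb in mutant and 3.22 ± 0.148 kb in control lines; SD, n = 2 each), a 3.75-fold difference. Without 236L the difference was 4.87 kb in place of 8.86 kb. A stretch from 5.32 to 7.69 kb inside the gene had H3K4me2 in all 4 lines. At the inner start H3K4me2 covered 1.67 kb within 2.5 kb in 236L, 0 kb in 236R and 0 kb in both control lines, so that difference was 1 line's.

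**Figure D2:**
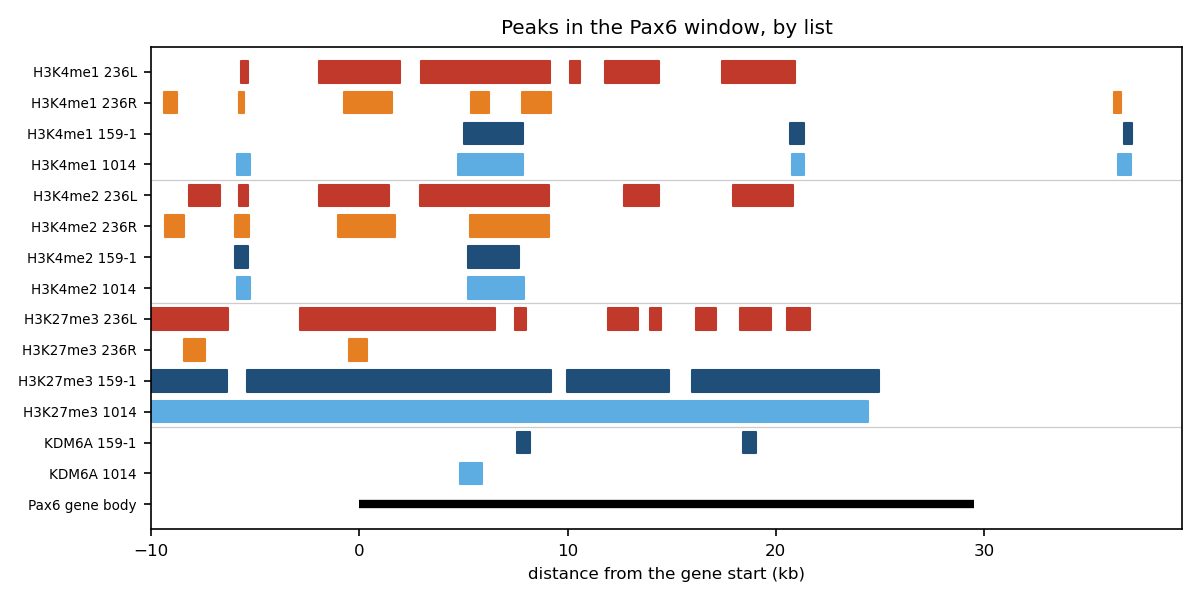
Peaks in the Pax6 window in each of the 14 lists (rows, by mark and line), against distance from the gene start in kb; the black bar is the gene body. H3K4me1 and H3K4me2 peaks stand over the gene start in both mutant lines and in neither control line, and H3K27me3 of 236R is left as 2 short peaks.

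Pax2 had 8.01 and 9.15 kb of H3K4me2 in 236L and 236R, against 3.32 and 2.14 kb in 159-1 and 1014 (means 8.58 ± 0.803 kb in mutant and 2.73 ± 0.839 kb in control lines; SD, n = 2 each), a 3.14-fold difference. Segments in both mutant lines and neither control line came to 4.67 kb and included 3.63 to 4.60 kb and 8.57 to 9.47 kb from the gene start. Around the inner start whose sequence is shown, H3K4me2 covered 2.58 and 3.05 kb within 2.5 kb in 236L and 236R, against 0.93 and 0 kb in 159-1 and 1014, and H3K4me1 2.36 and 3.92 kb in the mutant lines, against 0 and 0 kb in the control lines. At its other end a stretch from 88.9 to 90.4 kb had H3K4me2 in all 4 lines, and one from 97.6 to 97.9 kb had it in both control lines and neither mutant line.

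Pax3 had 8.43 and 10.47 kb of H3K4me2 in 236L and 236R, against 1.95 and 2.52 kb in 159-1 and 1014, a 4.23-fold difference. The means were 9.45 ± 1.45 kb in mutant and 2.23 ± 0.405 kb in control lines (SD, n = 2 each). Most of it lay in the high-coordinate part of the window, where 101.9 to 103.3 kb from the low-coordinate end was covered in all 4 lines and 87.8 to 89.0 kb and 94.9 to 95.7 kb in both mutant lines alone. Pax5 missed the 2 kb rule, with 8.18 and 12.1 kb in 236L and 236R, against 4.98 and 6.34 kb in 159-1 and 1014. Pax1 also missed it, with 2.10 and 2.69 kb in the mutant lines, against 0.383 and 0 kb in the control lines.

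The remaining members had no such order. Pax8 ran the other way by less than 2 kb, with 0.621 and 0.583 kb of H3K4me2 in 236L and 236R, against 2.69 and 1.85 kb in 159-1 and 1014. Its peak stood just inside the gene, so that 0 of the 250 bases shown were covered in any line. Pax7 had 4.99 and 7.29 kb in the mutant lines, against 11.5 and 3.46 kb in 159-1 and 1014. Its lines differed in place: both mutant lines covered 11.3 to 12.2 kb and neither control line did, while both control lines covered 48.1 to 48.6 kb and neither mutant line did. Pax9 had 4.53 and 6.14 kb in the mutant lines, against 3.31 and 6.03 kb in the control lines, and Pax4 0.401 and 0.212 kb in the mutant lines, against 0 and 0.852 kb in the control lines.

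H3K4me1, the enhancer mark, followed H3K4me2 in part. More of it in the mutant lines was found in 3 of 9 members, Pax2, Pax3 and Pax5, against 5.3% of all genes, and less in 1, Pax8, against 7.45%. The members' median difference was 3.18 points of the window, against 0.367 for all genes. Less H3K4me1 was found in 2 members without 159-1 (Pax7 and Pax8, against 12.3% of all genes), without 1014 (Pax8 and Pax9, against 8.72%) and without 236R (Pax7 and Pax8, against 15.2%). A peak lay in the window of 7 members in both mutant lines, against 69.4% of all genes, and of 7 in both control lines, against 67%. At the gene start a peak stood in both mutant lines in 4 members (Pax3, Pax4, Pax5 and Pax6), against 55.6%, and in both control lines in 2 (Pax7 and Pax8), against 47.8%. Pax3 had 11.5 and 11.3 kb in 236L and 236R, against 2.49 and 0.757 kb in 159-1 and 1014 (means 11.4 ± 0.120 kb in mutant and 1.62 ± 1.23 kb in control lines; SD, n = 2 each), a 7.003-fold difference. Pax2 had 9.76 and 11.6 kb in the mutant lines, against 1.16 and 3.14 kb in the control lines, a 4.96-fold difference (means 10.7 ± 1.31 kb in mutant and 2.15 ± 1.40 kb in control lines). In the control lines H3K4me1 of Pax2 stood only at the far end of the gene and beyond it, while both mutant lines also had it downstream of the gene start.

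Pax5 had 9.28 and 19.1 kb of H3K4me1 in 236L and 236R, against 6.90 and 4.57 kb in 159-1 and 1014, a difference of 8.47 kb (means 14.2 ± 6.97 kb in mutant and 5.74 ± 1.65 kb in control lines; SD, n = 2 each). It was 13.4 kb without 236L and 3.54 kb without 236R, and the gene fell short of the 2 kb rule with windows of 50 kb on each side, with the gene body alone, with peaks of q at or below 0.001 and with lists of equal length. Pax6 had 17.0 and 5.66 kb in the mutant lines, against 3.88 and 4.93 kb in the control lines, so the groups were 0.729 kb apart, and at the gene start alone the cover was 3.87 and 2.28 kb in the mutant lines, against 0 and 0 kb in the control lines. Pax8 was the member with less, at 0 and 2.47 kb in the mutant lines, against 5.72 and 7.54 kb in the control lines (means 1.24 ± 1.75 kb in mutant and 6.63 ± 1.28 kb in control lines; SD, n = 2 each), and it fell short of the rule in the gene body alone.

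Pax7 had the widest range of H3K4me1 between lines, with 0.880 and 21.1 kb in 236L and 236R, against 15.4 and 35.7 kb in 159-1 and 1014. Pax9 had 1.65 and 5.52 kb in the mutant lines, against 7.65 and 3.21 kb in the control lines, Pax1 0 and 2.10 kb in the mutant lines, against 0 and 0 kb in the control lines, and Pax4 1.17 and 0.484 kb in the mutant lines, against 0.857 and 0 kb in the control lines. In these 4 members the groups overlapped or touched.

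**Figure D3:**
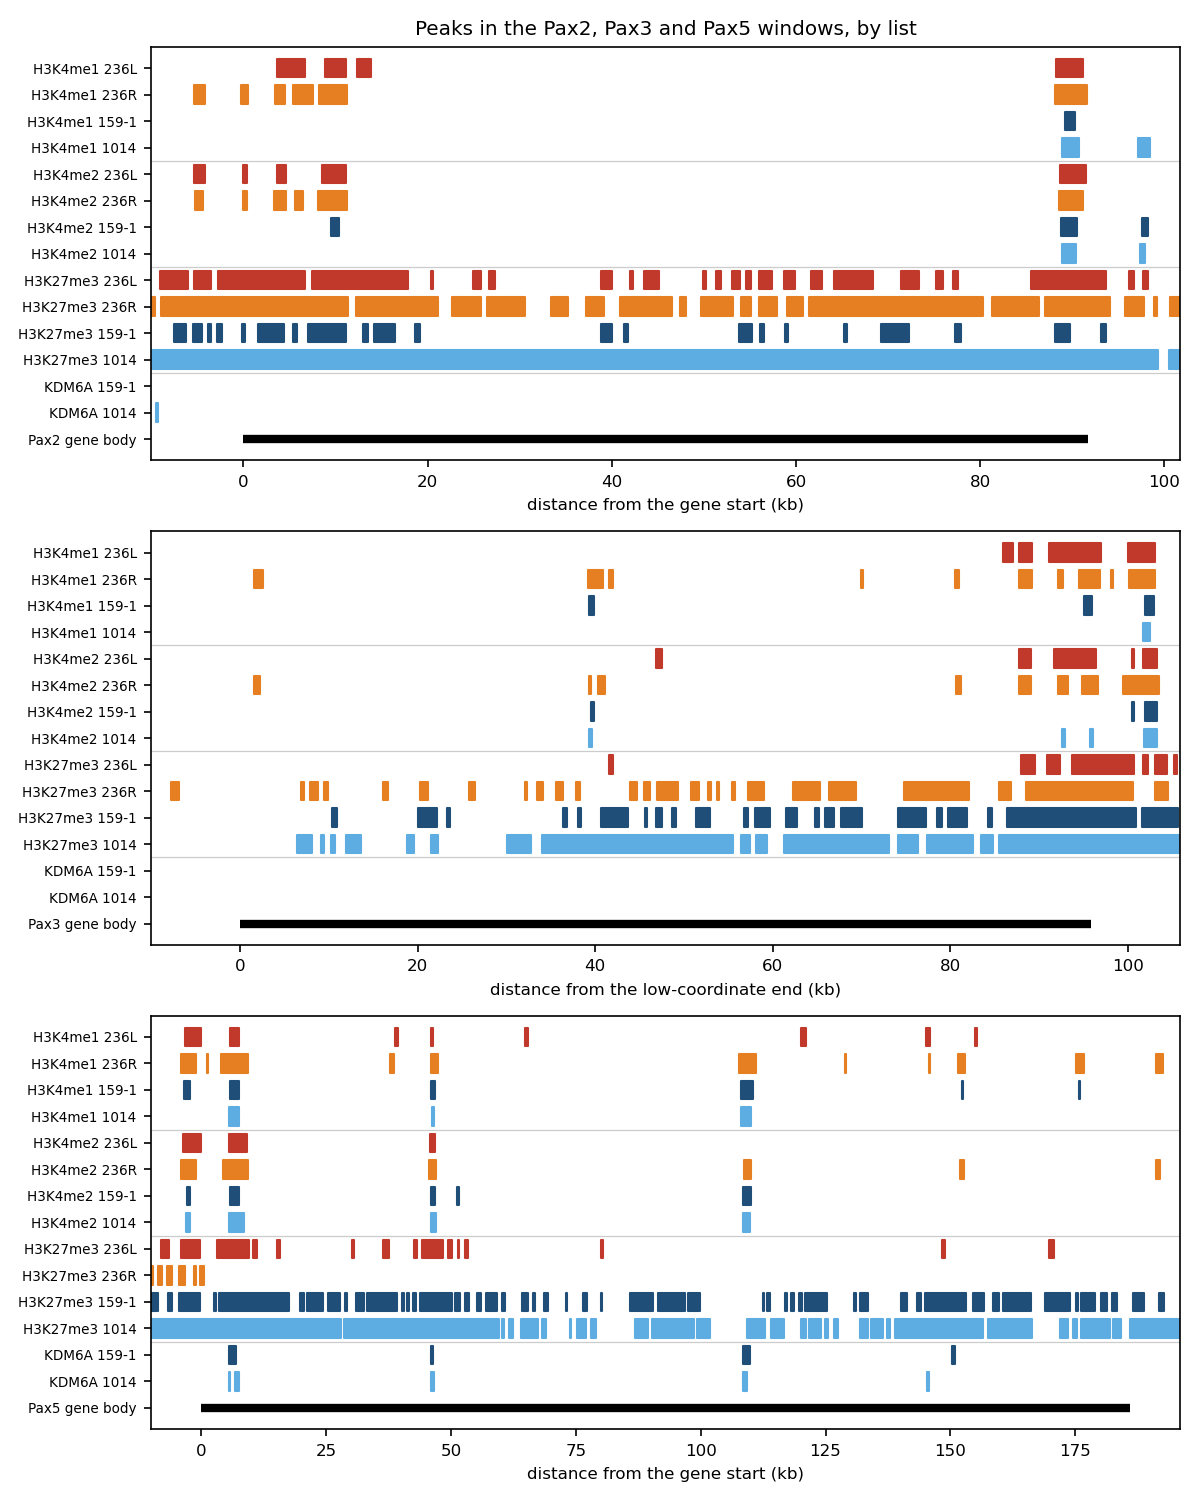
Peaks in the windows of Pax2, Pax3 and Pax5 in each of the 14 lists (rows, by mark and line), against distance in kb from the gene start, or from the low-coordinate end for Pax3; black bars are gene bodies. H3K27me3 runs along most of Pax5 in both control lines and is short in both mutant lines, while in Pax2 it is long in both mutant lines and in 1014.

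Both marks were then set side by side in each line, with the control H3K4me2 lists assigned by the sample records. In Pax6 10.9% of the H3K4me2 of 236R lay under H3K27me3 and 73.7% of that of 236L, against 82.7 and 100% in 159-1 and 1014. H3K4me2 without H3K27me3 covered 4.22 and 7.21 kb of Pax6 in 236L and 236R, against 0.538 and 0 kb in 159-1 and 1014. Pax3 had the same order, with 2.96 and 4.89 kb in the mutant lines, against 0.422 and 0 kb in the control lines, and so had Pax9, with 1.87 and 6.14 kb in the mutant lines, against 0.720 and 0 kb in the control lines. Pax7 and Pax8 had the reverse order. Pax7 had 0 and 0.256 kb in 236L and 236R, against 10.5 and 1.055 kb in 159-1 and 1014. Pax8 had 0 and 0.213 kb in the mutant lines, against 2.69 and 0.638 kb in the control lines. In Pax2 all H3K4me2 of both mutant lines lay under H3K27me3, as did 54.7% of it in 159-1 and 100% in 1014. In Pax5 the mutant lines differed: 99.5% of the H3K4me2 of 236L lay under H3K27me3 and 8.45% of that of 236R, against 67.8 and 86.7% in 159-1 and 1014. In Pax7 the shares were 100 and 96.5% in 236L and 236R, against 8.95 and 69.5% in 159-1 and 1014. With the control H3K4me2 lists exchanged, an alternative chosen after seeing the data, H3K4me2 without H3K27me3 in the control lines was 0.476 and 0 kb in Pax6, 0.400 and 0 kb in Pax3 and 1.69 and 0.148 kb in Pax9, set beside H3K27me3 of 159-1 and 1014. In Pax7 it was then 3.04 and 7.485 kb, and in Pax8 1.85 and 1.21 kb. The control shares under H3K27me3 were then 39.4 and 100% in Pax2, 76.3 and 81.4% in Pax5 and 11.9 and 34.8% in Pax7.

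**Figure D4:**
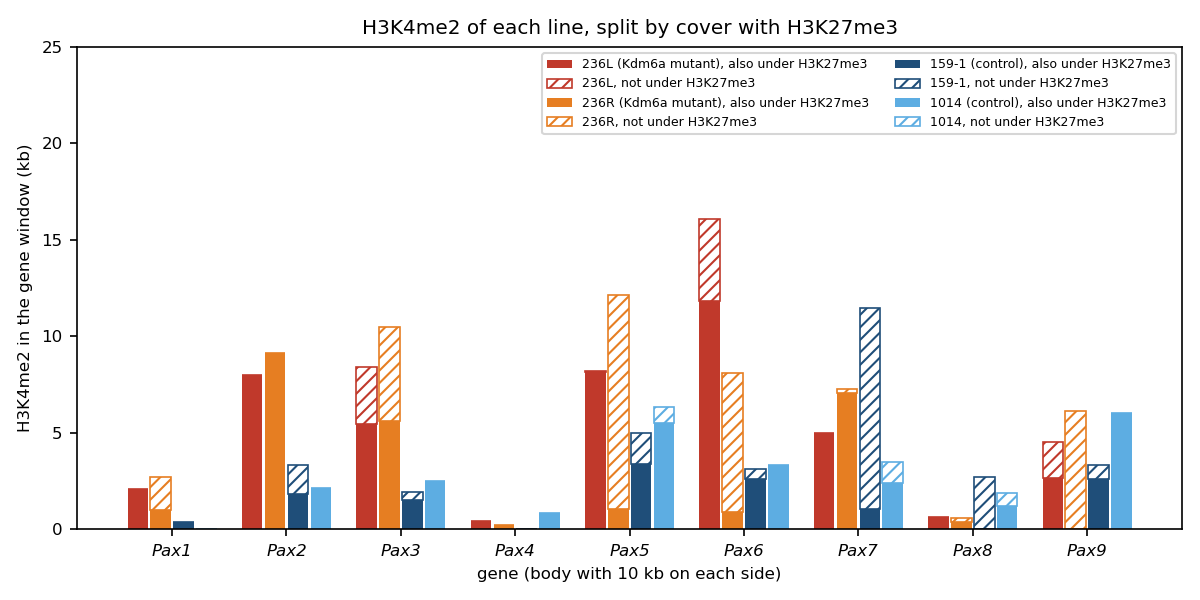
H3K4me2 in each Pax gene's window (y axis, kb) in each line, split into the part also under H3K27me3 (filled) and the part that is not (hatched); mutant lines stand to the left of control lines. Pax2 bars of the mutant lines are filled throughout, while those of 236R in Pax5, Pax6 and Pax9 are mostly or wholly hatched.

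KDM6A, mapped in the control lines alone, lay at a smaller share of the family than of all genes. A KDM6A peak lay in the window of 3 of 9 members in both control lines (Pax5, Pax6 and Pax7), against 62.3% of all genes, and within 2.5 kb of the gene start of 1, Pax7, against 48.9%. Pax5 had 3.98 and 3.24 kb in 159-1 and 1014, of which 1.73 kb was the same in both lines. Of it 3.18 and 2.54 kb lay under H3K4me2 (3.23 and 2.31 kb with the H3K4me2 lists exchanged) and 2.44 and 2.37 kb under H3K27me3 in the same line. Pax6 had 1.22 and 1.045 kb, all under H3K27me3, and no base was shared between the lines. Pax7 had 0.488 and 7.46 kb, with 10 peaks in 1014 and 1 in 159-1. Pax1, Pax3 and Pax4 had 0 kb in both lines, Pax2 0 and 0.251 kb, Pax8 0.522 and 0 kb and Pax9 1.18 and 0 kb. Pax2 and Pax3, the members with more of both H3K4me1 and H3K4me2 in the mutant lines, were among those with the least KDM6A in the control lines. Pax5, with more H3K4me1, and Pax6, with more H3K4me2, were by contrast among the 3 members with KDM6A in both control lines. Pax1 and Pax4, without KDM6A, had more of neither mark by the 2 kb rule. Without 1014 the count of members with a KDM6A peak in the window was 5, with Pax8 and Pax9 added. That count has no share of all genes set beside it.

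Genes that work with Pax proteins were read in the same way. The 14 partners included Six3, Six6, the Eya and Dach genes, and Paxip1 and Pagr1a, subunits of the methyltransferase complexes that hold KDM6A. Of these, 2 had more H3K4me2 in the mutant lines, against 1.36% of all genes, and 0 less, against 6.37%. These were Six3, a forebrain and eye factor, with 8.56 and 11.2 kb in 236L and 236R, against 0.858 and 3.603 kb in 159-1 and 1014, and Eya1, which codes for a transcriptional co-activator, with 7.33 and 16.8 kb in the mutant lines, against 3.11 and 3.95 kb in the control lines. H3K27me3 was less in 3 partners, Six3, Six6 and Eya4, against 6.43% of all genes, and more in 0. Six6, which acts with Pax6 in the retina, had 4.78 and 0 kb in the mutant lines, against 11.2 and 25.02 kb in the control lines. Eya4 had 2.65 and 2.04 kb in the mutant lines, against 7.16 and 6.14 kb in the control lines. H3K4me1 was less in 2, Paxip1 and Eya2, against 7.45% of all genes, and more in 0. Paxip1 had 2.68 and 5.29 kb in the mutant lines, against 9.95 and 10.1 kb in the control lines. The medians over the 14 were 0.689 points for H3K4me1, 0.822 for H3K4me2 and 0 for H3K27me3, against 0.367, 0 and 0 for all genes.

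Of 39 targets and co-factors of Pax proteins, 8 had more H3K4me2 in the mutant lines and 1 less, against 1.36 and 6.37% of all genes. For H3K4me1 10 had more and 1 less, against 5.3 and 7.45%, and for H3K27me3 1 had more and 11 less, against 0.425 and 6.43%. H3K27me3 lay in 25 and 29 of the 39 windows in 159-1 and 1014. The medians were 2.03 points for H3K4me2, 2.52 for H3K4me1 and -9.21 for H3K27me3, against 0, 0.367 and 0 for all genes. Gata3, which Pax2 and Pax8 switch on in the kidney, had 12.1 and 19.4 kb of H3K27me3 in 236L and 236R, against 34.2 and 41.5 kb in 159-1 and 1014, and Neurog3, an islet precursor gene that Pax6 helps to drive, had 6.99 and 9.82 kb in the mutant lines, against 0 and 0 kb in the control lines. Gata3 was among those with more of both other marks, and Neurog3 was the 1 with less of both. En1, a midbrain factor downstream of Pax2 and Pax5, had 7.65 and 7.19 kb of H3K4me2 in 236L and 236R, against 1.52 and 1.45 kb in 159-1 and 1014. Nkx3-2, a target of Pax1 and Pax9 in the sclerotome, had 9.13 and 8.22 kb in the mutant lines, against 2.15 and 3.94 kb in the control lines. Tg, the thyroglobulin gene that Pax8 drives in thyroid, had 45.1 and 9.81 kb of H3K4me1 in 236L and 236R, against 0 and 0 kb in the control lines, while Pax8 itself had less of that mark. For H3K4me2 of Tg the groups overlapped, with 8.66 and 0 kb in 236L and 236R, against 0 and 0.532 kb in 159-1 and 1014. As for the members, peaks of any other gene in the window count. Nkx2-2, an islet and neural factor tied to Pax6 and Pax4, had 16.0 and 11.8 kb of H3K27me3 in the mutant lines, against 25.7 and 37.3 kb in the control lines.

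Last, each member was matched to the genes with the most similar cover over all 14 lists, by Euclidean distance in percentage points of the window. The closest to Pax3 was Vsx1, at 10.99 points, to Pax5 Klf15, at 11.7, to Pax6 Tlx3, at 28.9, and to Pax2 Emx2, at 34.0. The median distances of all genes from these members were 84.3, 92.1, 110.8 and 138.5 points. The closest gene lies below such a median by construction, so the medians here only give a scale. The closest to Pax1 was Calcoco2, at 13.5 points, to Pax4 Olfr282, at 9.66, and to Pax7 Alox12b, at 30.7. Pax9 had Six6 as its next closest gene, at 21.99 points, after H2-Q2 at 20.3. Pax8 was closest to Tln2, at 5.16 points, against a median of 23.8 over all genes. Among the members themselves Pax1 and Pax5 were closest, at 26.3 points, and Pax2 and its closest member, Pax7, were 64.4 points apart.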

How the data were processed

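The submitters' processing notes name Bowtie2 2.4.2, MACS3 3.0.0a7 and the build mm10, while peak threshold, control track and duplicate handling are not stated in the labels. Every deposited list belongs to 1 library and gives positions, a score, the authors' fold enrichment (a ratio) and their −log10 p-value and q-value. The score and the −log10 p-value were not used, and folds served only within a list. No read counts were used, so depth is unknown.

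Peaks were merged per list over chromosomes 1 to 19, X and Y (337 peaks on contigs were left out) and their length summed in each gene's window (gene table and promoters: RefSeq, GRCm38.p6). Groups were compared as 2 lines against 2, with a separation of at least 2 kb and an exact permutation test (Python 3.11.15, NumPy 2.4.6, pandas 2.3.3, SciPy 1.17.1). Length sums were checked on simulated intervals, and the 2 kb rule on 1 control H3K4me2 list with added noise and shifts. That noise was chosen and not taken from these lines, so the check gives no rate of false calls among them. KDM6A samples had an extra crosslinking step with 2 mM DSG, per the labels. The series has 24 samples; the 10 input libraries were not analysed here. Named genes were all members, the 3 partner or target genes with the largest separation per mark and direction, and for likeness the 2 closest genes per member. Some named genes are not reported here. The members and lists were chosen with earlier results of these data known.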

Additional observations from a re-analysis of the deposited data

How the results depend on the processing

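Of the Pax counts in each group comparison, 54 values under other settings stayed within 1.5 times the reported one and 19 did not; of the differences of single members, 251 kept their call, 15 lost it, 27 gained it and 4 turned with a call. Of the 251, 18 changed sign with no call under either setting, all in Pax2, Pax4, Pax7, Pax8 or Pax9; among these were Pax2 H3K27me3 with the q filter (-24.0 kb in place of 3.99 kb) and Pax7 H3K27me3 at equal list length (2.66 kb in place of -15.3 kb). Windows of 50 kb on each side gave 5 members with KDM6A in both control lines, against 73.9% of all genes. In the gene body alone, less H3K4me1 was found in 0 members, against 5.71%. Within 2.5 kb of the gene start less H3K4me1 was found in 0, against 1.43%, and more H3K4me2 in 5, against 1.43%. There less H3K27me3 was found in 2, against 3.78%, and KDM6A in 1, against 48.9%. A separation of 1 kb gave more H3K4me2 in 5, against 3.44%, and less in 1 (Pax8), against 11.7%. A separation of 5 kb gave more H3K4me2 in 1 (Pax3) and less H3K4me1 in 0. Peaks of q at or below 0.001 gave more H3K27me3 in 1, Pax4. No share of all genes is set beside the 5 kb and q counts, so they are not read as results about the family. With 1 line left out, more H3K4me1 was found in 3 to 4, less H3K4me1 in 1 to 2, more H3K4me2 in 3 to 5, less H3K4me2 in 0 to 2, more H3K27me3 in 0 to 3, less H3K27me3 in 4 to 8 and KDM6A in 4 to 5. The 8 came without 159-1, where 16.9% of all genes had less, and the 3 (Pax2, Pax7, Pax8) without 1014, against 1%. With 236L left out, 5 had more H3K4me2, against 2.66% of all genes, and with 1014 left out 2 had less, against 9.65%. Less H3K4me1 in 2 came without 159-1, 1014 or 236R, against 12.3, 8.72 and 15.2%. The other counts with 1 line left out stand without a share of all genes. The 4 that turned with a call were Pax7 H3K4me2 at the gene start (1.22 kb), Pax4 H3K27me3 with the q filter (2.62 kb) and, with 1 line left out, Pax2 H3K27me3 (-39.4 without 159-1 to 47.3 kb) and Pax7 H3K27me3 (-44.2 to 13.7 kb without 1014); the cause was not tested. No paired analysis was possible because each replicate is a different line and the numbers only name samples in accession order. List length, with depth unknown, limits every H3K27me3 value.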
